A study of Arabidopsis thaliana with 8 samples.

Results

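The genes described here stood lower under salicylic acid (SA) than in water in wild-type seedlings and, by the array labels, in the npr1-1 mutant as well. Expression was measured on Affymetrix ATH1 arrays, on which each probe set reads a transcript with several short probes, in whole seedlings of Arabidopsis thaliana that were 2 weeks old. The 4 groups were Col-0 in water, Col-0 in SA, npr1-1 in water and npr1-1 in SA, each with 2 arrays given as biological replicates, and the SA groups had stood in 2 mM SA for 24 h. Col-0 is the wild-type, and npr1-1 is a mutant allele of NPR1, a coactivator of SA-responsive transcription, so that the mutant is represented by this allele alone. A gene was taken when its group-mean log2 level was lower by at least 0.5 under SA in both genotypes, each gene being read by the brightest of the probe sets that the platform annotation gives to it alone. AT1G66100 also met these values and was left out by the rule. The rule found 131 of 13356 genes (0.981%). These genes were selected on their measured differences between SA and water in each genotype, so the falls are given as a description, with no p-value.

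SA accumulates in plants under attack by biotrophic pathogens, and most of what it induces depends on NPR1. SA also lowers many transcripts. The best known of these belong to the jasmonate pathway, the wound and insect response of plants, on which SA acts as an antagonist, in part through NPR1.

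The labels of the npr1-1 arrays bear on this choice. Over all 13356 genes the SA differences of the 2 genotypes ran against each other (Pearson r = -0.47, Spearman rho = -0.35, across genes, which are not independent replicates). With the water and SA labels of npr1-1 as they stand, 131 genes were chosen. With these labels exchanged, 687 genes that were lowered in Col-0 and higher by at least 0.5 under the npr1-1 SA label would have met both thresholds in their place. The directions within npr1-1 therefore hold only as far as the labels do. The correlation between arrays was 0.994 to 0.996 inside a group and 0.922 to 0.966 across groups. The actin control read higher at the end of its transcript than at the start on every array, by 3.32 to 4.00 on the log2 scale in Col-0 water, 4.40 to 5.60 in Col-0 SA, 4.09 to 6.07 in npr1-1 water and 4.62 to 5.41 in npr1-1 SA, the npr1-1 ranges overlapping. For the ubiquitin control these differences were 0.98 to 1.08, 1.38 to 1.55, 0.77 to 1.15 and 1.42 to 1.87, so the SA arrays lay above the water arrays in both genotypes, and the part of this in the falls was not tested. NPR1 itself is not analysed here.

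The falls were mostly moderate. Over the 131 genes the log2 difference between SA and water had a median of -0.81 in the wild type, and of -0.90 by the npr1-1 labels. In Col-0, 10.0% of all genes had a difference of at most -0.5, and by the npr1-1 labels 9.83%. The deepest fall gave a difference of -2.68 in the wild type, and of -4.96 by the npr1-1 labels, and 15 genes had differences of -1 or below in both. Both SA arrays lay below both water arrays for 130 of the 131 genes in Col-0 (24.9% of all genes) and for 131 by the npr1-1 labels (26.1% of all genes), and 130 genes met this in each genotype (4.43% of all genes), which the rule itself favours. The exception was AT3G47295, at 3.24 and 2.55 in Col-0 water and at 2.56 and 2.04 in Col-0 SA. The median spread between replicates (pooled SD over the 4 groups) was 0.161 for these genes and 0.132 for all genes. Just inside the threshold lay AT5G54170, AT1G10340 and AT2G18690, whose smaller falls were differences of -0.501, -0.504 and -0.505, and just outside it AT4G32020, AT1G76600 and AT5G45350, at -0.498, -0.496 and -0.496. The RNA came from whole seedlings, in which fewer cells of a type and less RNA per cell cannot be told apart.

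**Figure D1:**
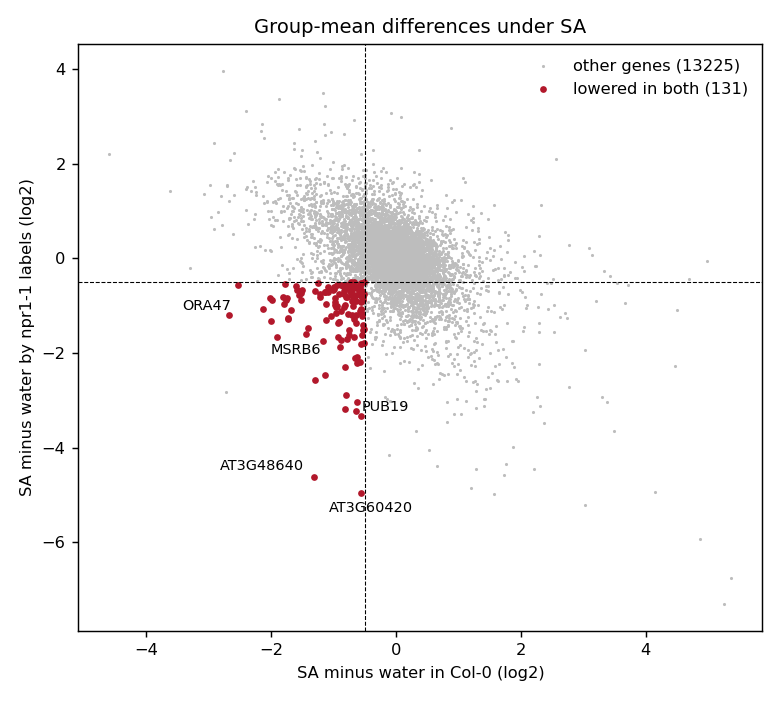
Log2 difference of group means between SA and water in Col-0 (horizontal axis) and by the npr1-1 labels (vertical axis), 1 point per gene, with the 131 genes lowered in both in red and the threshold of -0.5 as dashed lines. The cloud of all 13356 genes slopes downwards (r = -0.47), and the red genes reach -2.68 on the horizontal and -4.96 on the vertical axis.

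Of the 131 genes, 17 carry a symbol in the annotation or the gene table and 114 only a locus identifier, so that roles can be given for few of them. Methionine sulfoxide reductases of the B type repair oxidised methionine in proteins, and MSRB6 and MSRB9 had some of the largest falls. MSRB6 (AT4G04840) was at log2 levels of 4.85 and 4.67 in Col-0 water and 3.04 and 2.67 in Col-0 SA, and at 4.41 and 4.46 in npr1-1 water and 2.84 and 2.68 in npr1-1 SA. Water and SA arrays were far apart in both genotypes, and the genotypes lay close together, with SA differences of -1.91 and -1.67. MSRB9 (AT4G21850), which the study used as a representative of SA-repressed genes independent of NPR1, was at 7.49 and 7.55 in Col-0 water and 5.85 and 5.74 in Col-0 SA. In the mutant it was at 6.51 and 6.79 in water and 5.23 and 5.51 in SA, so that each npr1-1 group lay below the Col-0 group of the same treatment. The other B-type enzymes measured here, MSRB3 and MSRB5, were not lowered in both. MSRB3 (AT4G04800) had SA differences of 0.87 in Col-0 and -0.85 by the labels of npr1-1, and MSRB5 (AT4G04830) of -0.48 and 0.34.

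ORA47 and OPCL1 belong to the jasmonate pathway. ORA47 (AT1G74930), a transcription factor of the AP2/ERF type that activates genes of jasmonate synthesis, had the largest fall in Col-0 of all 131 genes. Its log2 level was 7.36 and 7.25 in Col-0 water and 4.49 and 4.77 in Col-0 SA. In npr1-1 it was at 4.59 and 4.53 in water already and at 3.57 and 3.17 in SA. The npr1-1 water arrays thus stood at the level of the Col-0 SA arrays, and the SA differences were -2.68 and -1.19. OPCL1 (AT1G20510), a CoA ligase that acts on jasmonate precursors in the peroxisome, went the other way in the size of its falls. It was at 5.93 and 6.36 in Col-0 water, 5.52 and 5.15 in Col-0 SA, 5.76 and 5.63 in npr1-1 water and 3.37 and 3.42 in npr1-1 SA. Its arrays other than npr1-1 SA lay between 5.15 and 6.36, and its SA differences were -0.81 and -2.30. Of a list of 28 further jasmonate genes 3 were measured, the methyltransferase JMT (AT1G19640), the thionin THI2.1 (AT1G72260) and the defensin PDF1.2 (AT5G44420). None of them was lowered by 0.5 in either genotype, with a median difference of 0.09 in each. Their group means were only 0.22 to 0.53 on the log2 scale, near the lowest values of the arrays. A fall of 0.5 could hardly appear there, so these genes do not show how other jasmonate genes responded.

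Calcium signalling was represented by CML37 (AT5G42380), a calmodulin-like calcium sensor known from wounding and insect feeding, and by IQD22 (AT4G23060), a protein with a calmodulin-binding IQ domain. CML37 was at log2 levels of 6.14 and 6.25 in Col-0 water, 4.99 and 4.50 in Col-0 SA, 4.82 and 4.89 in npr1-1 water and 3.12 and 3.40 in npr1-1 SA. Its SA differences were -1.45 and -1.60, and the Col-0 SA and npr1-1 water arrays overlapped. IQD22 was at 1.81 and 2.098, 1.26 and 1.52, 1.94 and 1.79, and 0.71 and 0.85 in the same order of groups, with SA differences of -0.56 and -1.09. Of 7 calmodulin-like genes with a CML symbol that were measured, CML37 alone met the rule, while 3 were lowered by 0.5 in Col-0 and 3 by the labels of npr1-1. CML38 (AT1G76650) had SA differences of -0.85 and -0.41 and CML41 (AT3G50770) of -1.35 and -0.28. CML43 (AT5G44460) turned from 1.53 in Col-0 to -1.54 by the npr1-1 labels.

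Several of the named genes encode proteins of the stress response. LTI30 (AT3G50970), a dehydrin of cold-treated and dehydrated tissue, was at log2 levels of 4.87 and 4.77 in Col-0 water, 4.09 and 4.23 in Col-0 SA, 4.92 and 5.02 in npr1-1 water and 3.77 and 3.61 in npr1-1 SA. The water arrays of both genotypes lay between 4.77 and 5.02, above all SA arrays. COR47 (AT1G20440), the other dehydrin measured, had SA differences of -1.55 in Col-0 and 0.73 by the labels of npr1-1, against -0.67 and -1.28 for LTI30. Of 17 listed genes of abscisic acid and dehydration 4 were measured, and LTI30 was the only one lowered in both. Of the others, COR15A (AT2G42540) and COR15B (AT2G42530) had group means of only 0.32 to 0.47 and 0.29 to 0.39, too dim for a fall of 0.5 to appear. Hsp70-2 (AT5G02490), a cytosolic chaperone, was at 7.19 and 7.09, 6.58 and 6.67, 7.58 and 7.40, and 5.84 and 5.57 in Col-0 water, Col-0 SA, npr1-1 water and npr1-1 SA. It lay just inside the threshold in Col-0, at a difference of -0.51, and at -1.78 by the npr1-1 labels. AILP1 (AT5G19140), named as a protein like those induced by aluminium, had SA differences of -0.57 and -0.71, with npr1-1 water arrays at 8.76 and 8.25. AT2G44060, listed as late embryogenesis abundant protein LEA26, had SA differences of -0.67 and -0.80.

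PUB19 (AT1G60190), a U-box ubiquitin ligase of the response to abscisic acid and drought, had the most unequal falls among the genes with a symbol. It was at log2 levels of 3.98 and 3.95 in Col-0 water, 3.14 and 3.50 in Col-0 SA, 5.44 and 5.46 in npr1-1 water and 2.31 and 2.15 in npr1-1 SA. It thus had both its highest and its lowest arrays in npr1-1, and its SA differences were -0.64 and -3.22. Of 9 genes with a PUB symbol, 3 were lowered by 0.5 in Col-0 and 2 by the labels of npr1-1, and PUB19 alone in both. PUB24 (AT3G11840) had SA differences of -0.19 and -2.38, and PUB23 (AT2G35930) of -1.06 and -0.31.

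The other genes with a symbol have various roles. GTR1 (AT3G47960), a glucosinolate transporter, was at log2 levels of 5.86 and 5.81 in Col-0 water, 4.84 and 5.15 in Col-0 SA, 5.30 and 5.44 in npr1-1 water and 4.38 and 4.30 in npr1-1 SA, so that its arrays did not overlap between any of the 4 groups. Its partner GTR2 (AT5G62680) had SA differences of -0.56 in Col-0 and 0.15 by the labels of npr1-1, against -0.84 and -1.03 for GTR1. RAB6A (AT2G44610), a small GTPase of Golgi traffic, had SA differences of -0.89 and -0.57. BGLU44 (AT3G18080), a beta-glucosidase, was at 2.86 and 2.77, 2.25 and 1.96, 3.83 and 3.79, and 3.01 and 3.08 in Col-0 water, Col-0 SA, npr1-1 water and npr1-1 SA, the npr1-1 arrays lying above all Col-0 arrays. It was the only one of 20 measured BGLU genes to meet the rule, which 0.981% of all genes met. Several of the others were too dim for a fall of 0.5 to appear. BGLU24 (AT5G28510), for example, had group means of 0.36 to 0.42, and BGLU32 (AT5G24550) of 0.03 to 0.21. JAL22 (AT2G39310), a jacalin-related lectin, had SA differences of -0.79 and -1.70, whereas JAL33 (AT3G16450) and JAL34 (AT3G16460) had -2.06 and -1.28 in Col-0 and 1.21 and 1.20 by the npr1-1 labels. CDI (AT1G64980), named for its induction by cadmium, had SA differences of -1.09 and -0.72, MOB1-like (AT5G45550) of -0.58 and -0.77, and AR781 (AT2G26530) of -0.64 and -0.77.

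**Figure D2:**
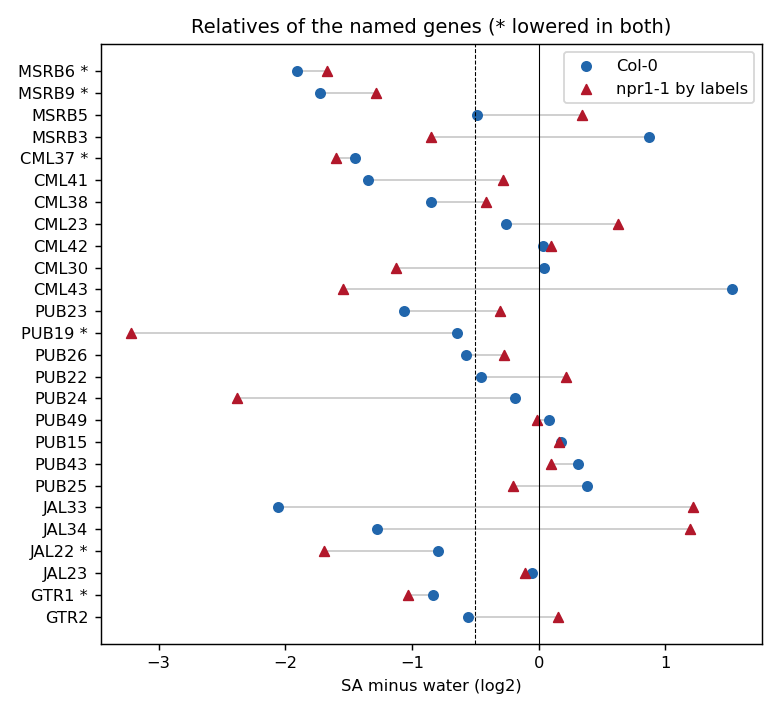
Log2 difference between SA and water in Col-0 (blue circles) and by the npr1-1 labels (red triangles) for the measured genes with MSRB, CML, PUB, JAL and GTR symbols, with a dashed line at -0.5 and an asterisk at genes lowered in both. By the rule, every gene without an asterisk had at least 1 point to the right of the line, as MSRB3 at 0.87 and -0.85.

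Among the genes known only by their locus, AT1G56060, AT1G11670, AT3G48640, AT1G61890, AT4G24380, AT5G39670, AT1G43910 and AT4G29780 were, with MSRB6, CML37, MSRB9 and ORA47, the 12 with the largest falls in both genotypes, ranked by the smaller of the 2. AT1G56060 was at log2 levels of 6.11 and 6.08 in Col-0 water, 4.77 and 4.60 in Col-0 SA, 4.52 and 4.46 in npr1-1 water and 3.21 and 2.82 in npr1-1 SA. As for CML37 and ORA47, its npr1-1 water arrays lay near its Col-0 SA arrays. AT4G24380 was at 7.26 and 7.47, 5.71 and 5.56, 6.21 and 6.10, and 4.90 and 4.91 in the same order. AT1G11670 fell to 0.85 and 0.73 in Col-0 SA and to 0.54 and 0.93 in npr1-1 SA, from 2.85 and 2.73 and from 2.02 and 2.103, so that its SA arrays overlapped between the genotypes. AT4G29780, at 8.76 and 8.66 in Col-0 water and 6.67 and 6.85 in npr1-1 SA, had SA differences of -1.12 and -1.29. AT5G11070, among the 4 brightest of the 131 genes in water, was at 7.72 and 7.78, 7.00 and 6.88, 7.92 and 7.89, and 6.94 and 6.89 in the same order, with the genotypes close together in each treatment.

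**Figure D3:**
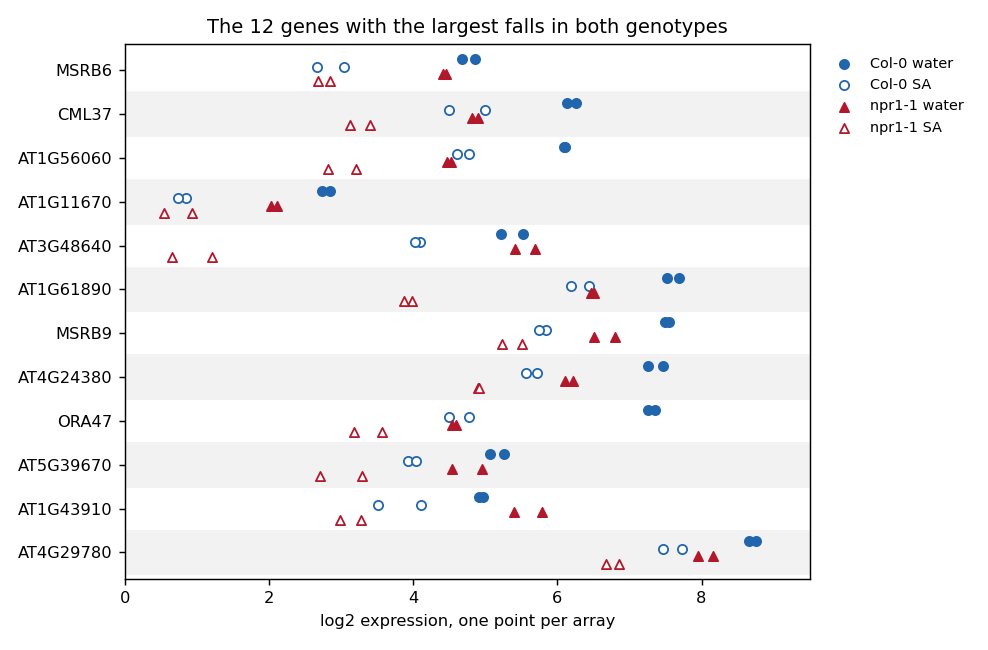
Log2 expression on each array (horizontal axis) of the 12 genes with the largest falls in both genotypes, with circles for Col-0, triangles for npr1-1, filled marks for water and open marks for SA. Within each genotype the open marks lie to the left of the filled ones, and for CML37, AT1G56060, AT1G61890 and ORA47 the npr1-1 water arrays lie close to the Col-0 SA arrays.

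The falls were of unequal size in many of the genes. For 54 of the 131 the 2 SA differences were within 0.3 of each other, for 17 the fall by the npr1-1 labels was larger by at least 1 and for 7 the fall in Col-0 was larger by as much. The extremes, chosen after their values were seen, were AT3G60420 and AT1G33760. AT3G60420 was at log2 levels of 7.02 and 7.21 in Col-0 water, 6.59 and 6.51 in Col-0 SA and 7.89 and 7.59 in npr1-1 water, and at 2.96 and 2.60 in npr1-1 SA. A fall of 0.57 in Col-0 thus stood beside one of 4.96 by the npr1-1 labels. AT1G33760 was at 5.04 and 4.58 in Col-0 water and 2.25 and 2.31 in Col-0 SA, and at 3.56 and 3.21 in npr1-1 water and 2.88 and 2.77 in npr1-1 SA, with SA differences of -2.53 and -0.56. Since both SA differences entered the rule, their difference was not tested.

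The contrast of npr1-1 with Col-0 over both treatments was not used by the rule, and its value for a gene does not depend on which npr1-1 arrays are water and which are SA, although the choice of the 131 genes does. With the labels as they stand, most of the chosen genes were also lower in npr1-1. With all 22746 probe sets in 1 limma fit, 77 of the 131 genes (58.8%) were called lower in npr1-1 at an adjusted p under 0.05 and 25 (19.1%) higher, and 29 did not pass. Over all probe sets 16.5% were called lower and 21.3% higher (3747 and 4847, or 5297 and 3896 after centring every array by its median). Calls were more frequent where the signal was high, and 76.3% of the 131 genes had a mean of at least 3 against 27.2% of all genes. Among all probe sets with such a mean, 31.3% were lower and 33.9% higher, and among the 100 of the 131 genes with such a mean 58 were lower and 18 higher. Beside probe sets of such a mean, the share of lower genes was thus above the background and the share of higher genes below it. Of the 687 genes that would be chosen with the npr1-1 labels exchanged, 12.2% were called lower and 65.4% higher, with a median difference of 0.53, so the direction of this result turns with these labels. The median difference between npr1-1 and Col-0 was -0.49 on the log2 scale for the 131 genes and 0.00 for all 13356. Whether these shares differ from the background was not tested.

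AT3G47540, AT1G19025, AT2G34930, AT1G13340, AT1G66090 and AT1G61890 had the smallest adjusted p among the genes lower in npr1-1. AT1G13340 was at log2 levels of 5.65 and 6.01 in Col-0 water, 4.98 and 4.72 in Col-0 SA, 3.80 and 3.66 in npr1-1 water and 2.82 and 2.67 in npr1-1 SA. All its npr1-1 arrays lay below all its Col-0 arrays, and it was lower in npr1-1 (log2 difference -2.099, standard error 0.107, adjusted p = 5.46e-08 from limma). AT2G34930 had the largest such difference of the 131 genes (-2.16, standard error 0.108, adjusted p = 4.96e-08 from limma), with 6.34 and 6.68 in Col-0 water against 4.03 and 3.87 in npr1-1 water. AT3G47540 was at 6.24 and 6.04, 5.35 and 5.29, 5.29 and 5.31, and 2.26 and 1.98 in Col-0 water, Col-0 SA, npr1-1 water and npr1-1 SA, so that most of its difference of -2.02 (adjusted p = 3.08e-08) came from the npr1-1 SA arrays. In all, 25 of the 131 genes had every npr1-1 array below every Col-0 array, and 35 were lower in npr1-1 by at least 1. The shares of all genes meeting each condition were not computed, so neither count can be set against a background.

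Of the 17 genes with a symbol, 8 (47.1%) were called lower in npr1-1 and 2 (11.8%) higher. Over all probe sets these shares were 16.5% and 21.3%, and 31.3% and 33.9% for those with a mean of at least 3. Whether the 17 genes differ from these was not tested. ORA47 was lower by 2.00 (standard error 0.108, adjusted p = 8.20e-08 from limma), AR781 by 1.73 (adjusted p = 1.13e-07), CML37 by 1.41 (adjusted p = 2.06e-06) and OPCL1 by 1.20 (adjusted p = 7.43e-06). MSRB9 and GTR1 were lower by smaller amounts, at differences of -0.64 and -0.56, and IQD22 and Hsp70-2 at -0.35 and -0.29, the last of these with an adjusted p of 0.0321. The call of Hsp70-2 was lost after quantile normalization (-0.21, adjusted p = 0.112), without moderation of the variances, and when Col-0 water replicate 1 or 2, Col-0 SA replicate 2, npr1-1 water replicate 2 or npr1-1 SA replicate 2 was left out, with adjusted p from 0.00734 to 0.125 over all alternatives. That of IQD22 was lost without moderation and when Col-0 water replicate 2, Col-0 SA replicate 2, npr1-1 water replicate 2 or npr1-1 SA replicate 1 was left out (adjusted p from 0.00549 to 0.0985). BGLU44 was higher in npr1-1 by 0.97 (standard error 0.0913, adjusted p = 5.60e-06 from limma) and RAB6A by 0.46 (adjusted p = 0.0102), a call that was lost without moderation (adjusted p = 0.116), without Col-0 water replicate 2 (0.0516) and without npr1-1 SA replicate 2 (0.0507). MSRB6, at -0.21 (standard error 0.102, adjusted p = 0.143), LTI30, at -0.16 (adjusted p = 0.188), PUB19, at 0.19 (adjusted p = 0.154), and JAL22, at 0.30 (adjusted p = 0.100), did not pass the test, nor did AILP1, CDI and MOB1-like. MSRB6 and PUB19 passed it without Col-0 SA replicate 2 (adjusted p = 0.0398 and 0.0394), JAL22 without Col-0 SA replicate 1 or npr1-1 SA replicate 2 (0.0435 and 0.0252), and MSRB6 and LTI30 with centred arrays (0.0326 and 0.0359).

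**Figure D4:**
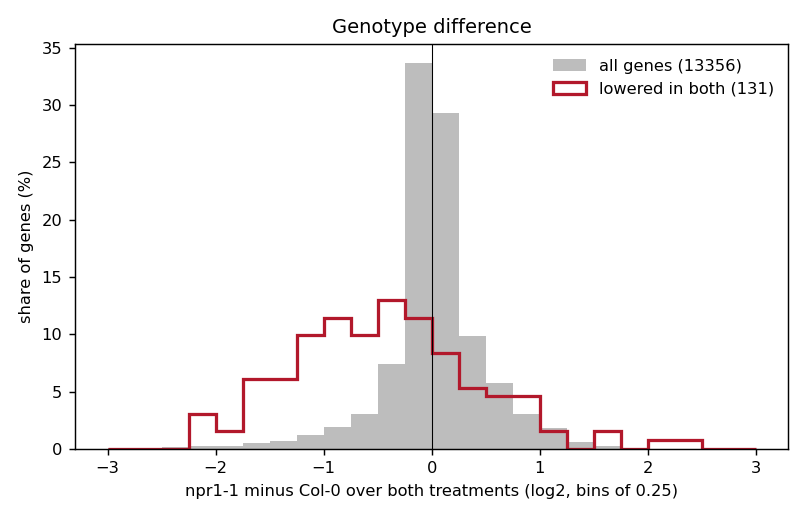
Share of genes (vertical axis, percent) by the log2 difference between npr1-1 and Col-0 over both treatments (horizontal axis, bins of 0.25), for all 13356 genes in grey and for the 131 genes lowered in both genotypes as a red line. The red line lies to the left, with a median of -0.49 against 0.00 for all genes. Its part above 0 holds the 25 genes called higher and also genes that were not called.

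The genes higher in npr1-1 were fewer but some differed widely. AT1G67865, AT3G06070, AT5G50335, AT4G31310, AT3G47295 and AT1G67870 had the smallest adjusted p among them. AT1G67865 was at log2 levels of 2.75 and 2.33 in Col-0 water, 1.97 and 1.98 in Col-0 SA, 6.14 and 6.45 in npr1-1 water and 3.14 and 2.80 in npr1-1 SA. Both npr1-1 groups lay above both Col-0 groups, and the difference over both treatments was 2.38 (standard error 0.122, adjusted p = 6.10e-08 from limma). AT3G47295 was at 3.24 and 2.55, 2.56 and 2.04, 4.75 and 5.12, and 4.39 and 4.19 in Col-0 water, Col-0 SA, npr1-1 water and npr1-1 SA, a difference of 2.01 (standard error 0.163) that was larger in size than its SA differences of -0.60 and -0.64. AT3G06070 differed by 1.51 and AT4G31310 by 1.56. The late embryogenesis gene AT2G44060 was higher by 0.65 (adjusted p = 0.000154).

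As a description, the npr1-1 group mean was below that of Col-0 in both treatments for 77 genes, above it in both for 26, lower in water alone for 7 and lower under SA alone for 21. The median difference was -0.41 in water and -0.55 under SA. The lowest of the 4 group means was npr1-1 SA for 98 genes and Col-0 SA for 33, and the highest was Col-0 water for 84 genes and npr1-1 water for 47. By the rule the lowest must be an SA group and the highest a water group, so these counts restate the signs above. ORA47 showed the larger genotype difference in water (-2.75, against -1.26 under SA), and AT1G61890 under SA (-2.38, against -1.11 in water). AT2G18690 had the same difference in both, at -1.48, with log2 levels of 9.31 and 9.21 in Col-0 water, 8.65 and 8.86 in Col-0 SA, 7.80 and 7.75 in npr1-1 water and 7.24 and 7.29 in npr1-1 SA.

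**Figure D5:**
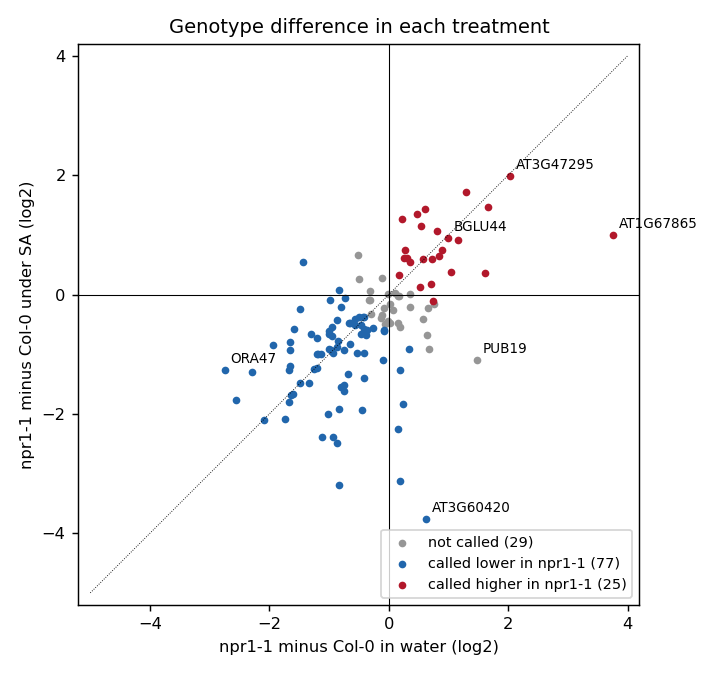
Log2 difference between npr1-1 and Col-0 in water (horizontal axis) and under SA (vertical axis) for the 131 genes, coloured by the call over both treatments (77 lower, 25 higher, 29 not called), with equal differences on the dotted line. Most points lie below 0 on both axes (77 genes), PUB19 lies at 1.48 and -1.09, and AT3G60420 at 0.63 and -3.77.

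Groups with other SA patterns are set beside these genes as a description. Of the 427 genes raised by at least 0.5 in Col-0 and lowered by the npr1-1 labels, 50.6% were called lower and 17.1% higher in npr1-1, shares close to the 58.8% and 19.1% above, with a median difference of -0.30. Of all 1313 genes with a difference of at most -0.5 by the npr1-1 labels, 39.5% were lower and 24.6% higher, and of all 1338 with such a difference in Col-0, 22.5% were lower and 51.2% higher. Of the 54 genes raised by at least 0.5 in both genotypes, 83.3% were called lower and 11.1% higher, with a median of -1.19. The groups of 1313 and 1338 genes include the 131 genes, and the differences between them were not tested.

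The genes lay on all 5 chromosomes, with 41, 26, 26, 17 and 21 of them on chromosomes 1 to 5 (31.3%, 19.8%, 19.8%, 13.0% and 16.0%, against 25.8%, 16.4%, 20.6%, 14.6% and 22.6% of all genes). In the gene order of assembly TAIR10.1, 5 pairs of neighbouring genes, with 9 genes in all, were both lowered. AT3G48640 and AT3G48650, the second listed as a transcribed pseudogene, had the deepest falls of these pairs by the npr1-1 labels. In Col-0 the falls of AT1G67870 and AT1G67880 were deeper, at differences of -1.80 and -0.74 against -1.32 and -0.62. AT3G48640 was at log2 levels of 5.21 and 5.53 in Col-0 water, 4.09 and 4.02 in Col-0 SA, 5.69 and 5.42 in npr1-1 water and 0.65 and 1.20 in npr1-1 SA. AT3G48650 was at 5.42 and 5.58, 4.74 and 5.02, 5.76 and 5.56, and 2.64 and 2.61 in the same order, so that both stood out by their npr1-1 SA arrays, and whether their probes share sequence is not analysed here. AT1G67865, AT1G67870 and AT1G67880 stood in a row, and their differences between npr1-1 and Col-0 were 2.38, 1.02 and -0.53. AT1G72940 and AT1G72950 had SA differences of -0.91 and -0.73 in Col-0 and of -1.35 and -0.51 by the npr1-1 labels, and AT2G32020 and AT2G32030 of -0.68 and -0.62 and of -0.84 and -2.08.

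Gene lists of other functions held few genes that could be read, a gene counting as measured where a probe set is annotated to it alone. Since 0.981% of all genes were chosen, 0 chosen genes in lists of 1 to 10 measured genes is no result about them. Of 41 listed genes of the photosynthetic light reactions and Rubisco 8 were measured, of which 7 were lowered by 0.5 in Col-0 and 0 by the labels of npr1-1, with median differences of -1.12 and 0.43. Of 29 expansin and xyloglucan endotransglucosylase genes 10 were measured, 6 were lowered in Col-0 and 1 by the labels of npr1-1, and 0 in both. Of 24 genes of SA synthesis, turnover and signalling 6 were measured and 0 were lowered in both. The same held for the measured genes of chlorophyll synthesis (3 of 15), auxin (5 of 27) and glucosinolates and camalexin (3 of 28). It also held for the circadian clock (1 of 16) and nitrate and sulfate assimilation (1 of 14). Of the ERF, CBF and ZAT factors 1 of 19 was measured, and 0 were lowered in both. The lists do not hold every gene of a class. ORA47, of the AP2/ERF type, and GTR1, a glucosinolate transporter, were lowered in both but stand on none of these lists. None of the 20 genes of cuticle and wax was matched to a probe set here. Of the tissue markers, the mesophyll genes RCA (AT2G39730) and LHCB4.1 (AT5G01530), 2 of 11 listed, had SA differences of -1.08 and -1.28 in Col-0 and both of 0.63 by the npr1-1 labels. The 1 root marker measured of 13, EXPA7 (AT1G12560), had differences of -0.16 and -0.07, and the epidermal and guard cell markers FMA (AT3G24140) and SPCH (AT5G53210), 2 of 8, of -0.58 and 0.11 in Col-0 and of 0.01 and 0.12 by the npr1-1 labels. The 7 markers of the vasculature were not matched to a probe set here. No measured marker fell by 0.5 in both genotypes. EXPA7 and SPCH were dim in all groups, with group means of 0.50 to 0.66 and of 0.70 to 0.89. A fall of 0.5 could hardly appear in them, so they give no reading of their tissues.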

How the data were processed

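Per the labels and methods, the deposited log2 values, 1 per probe set and array, are the authors' own: background-corrected, normalized across the arrays and summarized over the probes of each set. For these steps the methods give GCOS and RMA as run in affylmGUI, whereas Affymetrix Expression Console stands in the notes of the submitters. Versions were not given in the sources used here. Values lay between -0.14 and 11.53. Since these steps compress low signals, differences of dim genes may be understated, and the 8 arrays limit the precision. After 64 control probe sets were left out, 22746 remained. Of these, 13513 have 1 gene symbol in the platform annotation, 503 several and 8730 none listed, which gave 13356 genes. All 131 chosen genes matched the gene table of assembly TAIR10.1 by locus.

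A model with 1 mean for each of the 4 groups was fitted in R 4.3.3 by limma 3.58.1 (eBayes with no trend; statmod 1.5.0 served the robust fit), and adjusted p follow Benjamini and Hochberg, over the 22746 probe sets. The test was two-sided. P-values measure the spread between these arrays. The fit was tested on simulated data. As alternatives, a block for the replicate number was fitted, and quantile normalization, centring, a filter on dim probe sets, other variance models, other thresholds and leaving out each array were tried.

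The genes and the gene lists were chosen with earlier results of these data known. The genes named are the 12 with the largest smaller fall, the 6 with the smallest adjusted p in each direction between the genotypes, the 4 brightest in water, those at the threshold, neighbouring genes and members of the lists. Genes with a symbol and their relatives were added after the values were seen. Classes by words in gene descriptions and promoter motifs were planned and were not analysed here, since no descriptions or sequences were used.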

Additional observations from a re-analysis of the deposited data

How the results depend on the processing

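The number of genes lowered in both genotypes was 131. It was 87 at a threshold of -0.6 and 15 at -1, which follows from the stricter threshold, and 193 at -0.4. It was 112 after quantile normalization (110 of them among the 131) and 132 with arrays centred on the median (123 among the 131). Without 1 array it was 120 to 152. Choosing by limma calls in both genotypes instead gave 168 genes (125 among the 131). Those calls rest on the same SA differences as the rule, so this overlap is no support for the falls. In the contrast of npr1-1 with Col-0 over both treatments, 77 of the 131 genes were called lower and 25 higher. These counts were 70 to 78 and 21 to 24 without 1 array, and 57 and 19 without moderation of the variances. With centring, which moves the median of all probe sets from 0.00 to -0.09, they were 84 and 22. With 1 probe set per gene in the fit, 1861 and 2600 of 13356 were called lower and higher, fewer features being tested. With the replicate number as a block 77 were lower and 24 higher, and 3676 and 4768 over all probe sets. Deviations of equally numbered arrays correlated at -0.19 to 0.08, so no common pairing by number was seen. Whether arrays were handled together in some other order was not tested. No difference of a named gene that had been called changed sign. Signal over background was not part of the values used, and 2 arrays per group limit what small differences can show.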
